A study of Rattus norvegicus with 6 samples.

Results

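The cholesterol synthesis and SREBP2 genes described here are 8 of the 12130 genes tested: the sterol synthesis enzymes Hmgcs1, Idi1, Fdft1, Sqle, Lss and Dhcr7, the transcription factor gene Srebf2, which encodes SREBP2, and its regulator Insig1. They were chosen as named genes of cholesterol synthesis, and their probes were found by RefSeq accession, which gave 20 probes among the 61537 non-control probes of the array. The arrays hold RNA from renal cortex of male Sprague-Dawley rats bought at 5 weeks of age, fed a basal diet and dosed for 4 weeks. The controls were given corn oil. The treated rats were given 4-hydroxy-m-phenylenediammonium dichloride at 100 mg/kg/day, with its vehicle not given in the sources used here. There were 3 animals per group, described in the series as biological replicates, with 1 single-colour array for each animal.

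Cells build cholesterol from acetyl-CoA through mevalonate, isoprenoid units, squalene and lanosterol. When sterols in the endoplasmic reticulum run low, the escort protein SCAP carries SREBP2 to the Golgi, where proteases release its active part, which switches on nearly every enzyme of this pathway. When sterols are plentiful, INSIG proteins hold SCAP back in the endoplasmic reticulum. Renal tubule cells both make cholesterol and take it up from lipoproteins.

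At the brightest probes, Fdft1 was the only member called higher in the treated animals, and no member was called lower. The call of Fdft1 was kept in 7 of 17 alternative ways of processing the data. With limma and Benjamini-Hochberg adjustment over all genes, 1 of the 8 members was called higher and 0 lower, leaving 7 that did not pass. At an unadjusted p under 0.05 there was 1 in each direction (25.0% of all genes). Of all genes tested, 4.38% were called, 3.05% higher and 1.33% lower. The groups did not overlap for 2 of the 8 members, a share of 25.0%, and for 32.8% of all genes. The mean was higher in treated animals for 4 members and lower for 4, with a median log2 difference of -0.033 beside -0.030 for all genes. The median size of the log2 difference, without its sign, was 0.12 for the members and 0.14 for all genes.

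A level is the log2 signal of a probe after subtracting the 75th percentile of its array, and differences are treated minus control on the same scale. Levels of different probes cannot be compared. Between 63.1% and 69.6% of non-control probes were well above background on an array, and correlations of array pairs, taken over genes that are not independent, lay between 0.985 and 0.994. The number of arrays limits the precision. Slide 1 carried only control arrays and slide 2 only treated ones, each with its own scan, so that slide and scan cannot be told apart from treatment. The 8 spike-in probes well above background differed by a median of -0.13, from -0.19 to -0.065, after the same scaling. The 18 markers of the proximal tubule, thick ascending limb, distal and collecting tubule and glomerulus were well above background on all 6 arrays. The 7 proximal tubule markers summed to 1510 to 1653 in controls and 1445 to 1512 in treated animals, in multiples of the 75th percentile, and 1 of them was called, Aqp1, at a log2 difference of -0.58 (adjusted p = 0.034). Of 6 adrenal cortex markers, 4, namely Cyp11b1, Cyp11b2, Star and Mc2r, were not well above background on any array. The other 2, Cyp11a1 and Cyp21a1, were well above background on all 6 arrays. Control replicate 3 stood apart in hepatocyte markers: the summed signal of 4 of them (Alb, Apoa1, Apoh and Tat) was 15.9 there and 0.588 to 1.19 on the other arrays, with Tat not well above background on any. Adipocyte markers, 3 of 4 named, summed to 1.21 to 1.70 in controls and 1.18 to 1.34 in treated animals, with Lep not well above background on any array. Leukocyte markers, 4 of 5 named, summed to 2.47 to 3.15 and 2.37 to 3.21. Red cell markers, 5 of 6 named, summed to 2.15 to 2.38 in controls and to 3.60, 10.2 and 11.5 in treated animals, and 1 of them was called, Gata1, higher in treated animals (adjusted p = 0.039) and well above background on 3 of the 6 arrays. The part of the hepatocyte and red cell signals in the results was not tested. Without control replicate 3, 0 of the 12130 genes were called by limma, with 2473 at an unadjusted p under 0.05, and the members' differences ran from -0.45 (Lss) to 0.33 (Fdft1), with Dhcr7 at -0.11 and Srebf2 at -0.0050. Leaving out control replicate 1, treated replicate 2 or treated replicate 3 also gave 0 calls. Without control replicate 2 there were 48 higher and 6 lower, and without treated replicate 1 there were 44 and 2. In whole cortex, fewer cells of a type and less RNA per cell cannot be told apart.

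**Figure D1:**
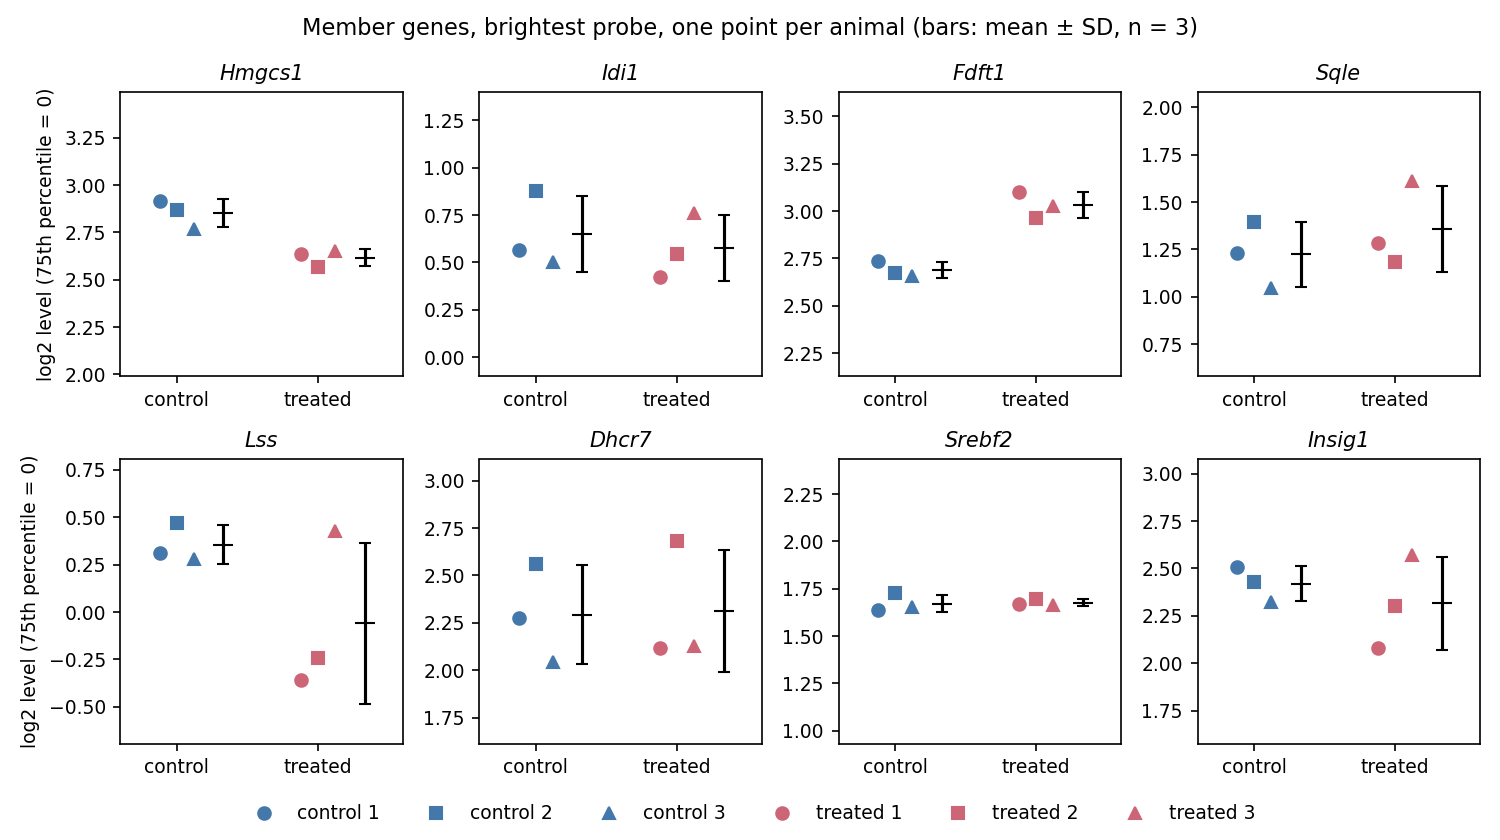
The log2 level of each member's brightest probe (vertical axis, every panel spanning the same 1.5 log2 units) is plotted for the 3 control and 3 treated animals, with the mean ± SD beside them. Fdft1 and Hmgcs1 are the 2 members whose groups do not overlap, in opposite directions, while 1 treated animal lifts Lss into the control range.

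The proximal promoter windows of 4 members that are known SREBP2 targets are shown because genes under one factor often share the boxes of its partners. RefSeq promoter windows of 300 bases, 250 before and 50 after the gene's start in build GRCr8, were matched for 6 of the 8 members, not for Fdft1 and Sqle. Capitals mark the NF-Y box, CCAAT, or ATTGG where it lies on the other strand. The 4 windows shown all hold this box. Those of Dhcr7, which does not hold it, and Srebf2, which does, were matched but are not shown. The Hmgcs1 window is chr2:53382054-53382353 on the plus strand, Idi1 is chr17:66547475-66547774 on the minus strand, Lss is chr20:12118181-12118480 on the minus strand, and Insig1 is chr4:8057720-8058019 on the minus strand. All are written 5′ to 3′ along the gene.
Hmgcs1: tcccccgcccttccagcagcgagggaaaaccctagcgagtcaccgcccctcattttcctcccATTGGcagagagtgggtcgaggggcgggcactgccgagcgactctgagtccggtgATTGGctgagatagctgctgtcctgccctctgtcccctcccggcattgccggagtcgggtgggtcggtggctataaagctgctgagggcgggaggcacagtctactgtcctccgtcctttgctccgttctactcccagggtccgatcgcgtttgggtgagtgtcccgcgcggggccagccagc
Idi1: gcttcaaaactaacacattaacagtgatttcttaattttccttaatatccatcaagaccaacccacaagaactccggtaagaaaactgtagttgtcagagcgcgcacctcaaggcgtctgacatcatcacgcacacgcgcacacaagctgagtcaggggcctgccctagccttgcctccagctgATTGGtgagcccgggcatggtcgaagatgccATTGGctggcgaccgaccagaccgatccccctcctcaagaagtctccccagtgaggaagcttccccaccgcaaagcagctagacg
Lss: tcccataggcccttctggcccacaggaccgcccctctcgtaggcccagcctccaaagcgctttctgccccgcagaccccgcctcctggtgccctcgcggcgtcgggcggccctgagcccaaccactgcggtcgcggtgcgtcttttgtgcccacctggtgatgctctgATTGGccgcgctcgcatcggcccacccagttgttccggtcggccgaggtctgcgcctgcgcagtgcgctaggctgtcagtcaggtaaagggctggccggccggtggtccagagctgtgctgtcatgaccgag
Insig1: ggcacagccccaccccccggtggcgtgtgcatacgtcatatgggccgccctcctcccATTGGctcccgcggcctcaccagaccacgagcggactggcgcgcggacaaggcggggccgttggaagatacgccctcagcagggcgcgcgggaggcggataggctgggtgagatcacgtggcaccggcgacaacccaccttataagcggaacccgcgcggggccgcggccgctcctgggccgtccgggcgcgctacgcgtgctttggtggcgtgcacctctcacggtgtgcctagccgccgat

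The NF-Y box, bound by a factor that works beside SREBPs at many sterol genes, stood in 5 of the 6 member windows, and of the 6 the Dhcr7 window did not hold it. It also stood in 10 of 12 windows of other sterol enzymes and in 37.7% of 27457 windows in the table. Counted in bases from the gene's start, negative before it, the box began at -188 and -133 in Hmgcs1, -66 and -35 in Idi1, -82 in Lss, -193 in Insig1 and -129 in Srebf2. The GC box, GGGCGG on either strand, stood in 5 of the 6 windows, in 34.9% of all windows and in 57.4% of windows of genes tested. The E-box CACGTG stood in 1, that of Insig1, and in 6.65% of all windows. The sterol regulatory element, spelt TCACNCCAC on either strand, stood in 0 of 6 and in 1.13% of all windows, and the shorter CACCCCAC, which overlaps it where N is C, in 0 of 6 and 2.57%. These are matches of letters within 300 bases, which do not show binding.

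Hmgcs1 encodes cytosolic HMG-CoA synthase, which makes HMG-CoA on the way to mevalonate. Its brightest probe had levels of 2.92, 2.87 and 2.77 in controls and 2.64, 2.57 and 2.65 in treated animals. All 3 treated values lay below all 3 control values. The difference was -0.23 (SE 0.063, 95% interval -0.39 to -0.078), or 1.18-fold lower by the means, and did not pass (limma adjusted p = 0.095). The other 2 probes did not repeat it. One had a difference of 0.088 (SE 0.065, adjusted p = 0.443 over every kept probe) and the other -0.025 (SE 0.10, adjusted p = 0.908), both with overlapping groups. The difference was -0.28 without control replicate 3 (adjusted p = 0.132), -0.057 for the mean of the 3 probes (adjusted p = 0.626) and -0.064 when arrays were scaled on spike-ins (adjusted p = 0.602).

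Idi1 encodes isopentenyl-diphosphate isomerase, which interconverts the isoprenoid building blocks. Its levels were 0.57, 0.88 and 0.50 in controls and 0.42, 0.54 and 0.76 in treated animals, with wide overlap. The difference of -0.072 (SE 0.14, adjusted p = 0.778) had a 95% interval that runs from 0.754-fold to 1.20-fold. The other 2 probes had differences of -0.033 and -0.19 and did not pass (adjusted p = 0.886 and 0.470). In all 3 probes the highest control value was that of control replicate 2.

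Fdft1 encodes squalene synthase, which joins farnesyl diphosphate into squalene and so commits the pathway to sterols. It was at 2.73, 2.67 and 2.66 in controls and at 3.10, 2.96 and 3.03 in treated animals. The lowest treated value lay above the highest control value, and the spread within each group (SD 0.041 and 0.068, n = 3) was smaller than the gap between the group means. Fdft1 rose 1.27-fold (log2 difference 0.34, SE 0.061, 95% interval 1.14-fold to 1.41-fold, limma adjusted p = 0.043). Its second probe read -0.19, -0.026 and -0.31 in controls and 0.0080, -0.039 and 0.012 in treated animals. There the groups overlapped and the difference of 0.17 (SE 0.087, adjusted p = 0.286) did not pass. The direction held in all 17 alternative settings, but the call was lost in 10 of them. The adjusted p was 0.093 to 0.119 when any 1 array was left out (0.119 without control replicate 3), 0.068 with median scaling and 0.099 for the mean of both probes.

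Sqle encodes squalene epoxidase, a rate-limiting enzyme that follows squalene synthase. Its levels were 1.23, 1.39 and 1.05 in controls and 1.28, 1.18 and 1.61 in treated animals, the highest being treated replicate 3. The difference of 0.14 (SE 0.14, adjusted p = 0.599) allows values from 0.858-fold to 1.41-fold. The second probe had a difference of 0.25 (SE 0.14, adjusted p = 0.326), with overlapping groups.

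Lss encodes lanosterol synthase, which folds squalene epoxide into the first sterol. Its brightest probe was at 0.31, 0.47 and 0.28 in controls and at -0.36, -0.24 and 0.43 in treated animals. Treated replicates 1 and 2 lay below every control, while treated replicate 3 lay among them. The difference of -0.41 (SE 0.22, adjusted p = 0.298) did not pass, and it was -0.66 without treated replicate 3 (adjusted p = 0.084). Leaving out treated replicate 1 instead gave -0.26, with an adjusted p of 0.528.

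The second Lss probe was at -1.07, -0.87 and -1.09 in controls and at -1.95, -2.09 and -1.64 in treated animals. All treated values lay well below all control values, treated replicate 3 again the nearest. By this probe Lss fell 1.84-fold (log2 difference -0.88, SE 0.14, 95% interval -1.21 to -0.55, limma adjusted p = 0.022 over 40988 kept probes). Among all kept probes 6.72% were called, and among the 19 kept probes of the members 1 was called higher, that of Fdft1, and 1 lower. The groups did not overlap for 3 of these 19 probes, or 15.8%, against 33.3% of all kept probes. The probe was singled out after its values were seen. Its adjusted p was 0.061 to 0.079 when any array other than treated replicate 3 was left out.

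Dhcr7 encodes 7-dehydrocholesterol reductase, which makes cholesterol itself in the last step of one branch. Its single probe was at 2.28, 2.56 and 2.04 in controls and at 2.12, 2.68 and 2.13 in treated animals. Replicate 2 was the highest in each group, and the groups overlapped. The difference was 0.017 (SE 0.20, adjusted p = 0.970), with a 95% interval from 0.712-fold to 1.44-fold.

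Srebf2 had the smallest difference and the smallest standard error of the 8 members. Its levels at the brightest probe were 1.64, 1.73 and 1.65 in controls and 1.67, 1.70 and 1.67 in treated animals. The difference was 0.0053 (SE 0.053, adjusted p = 0.964), with a 95% interval from -0.13 to 0.14 on the log2 scale. A second probe had a difference of 0.021 (SE 0.11, adjusted p = 0.932). The third was well above background on 1 of 6 arrays, control replicate 3, at -3.34 against -6.58 to -5.72 elsewhere, and was not tested. The activity of SREBP2 depends on its cleavage, which these arrays do not measure.

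Insig1 encodes an INSIG protein and is itself an SREBP target. Its brightest probe was at 2.51, 2.43 and 2.32 in controls and at 2.08, 2.30 and 2.57 in treated animals. Treated values lay on both sides of the control range. The difference was -0.10 (SE 0.13, adjusted p = 0.668), with an interval from 0.739-fold to 1.17-fold, and the other 3 probes had differences of 0.016, 0.099 and 0.23, none past the threshold (adjusted p = 0.961, 0.598 and 0.560). All 4 probes ranked the treated animals alike, with treated replicate 1 lowest and treated replicate 3 highest.

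**Figure D2:**
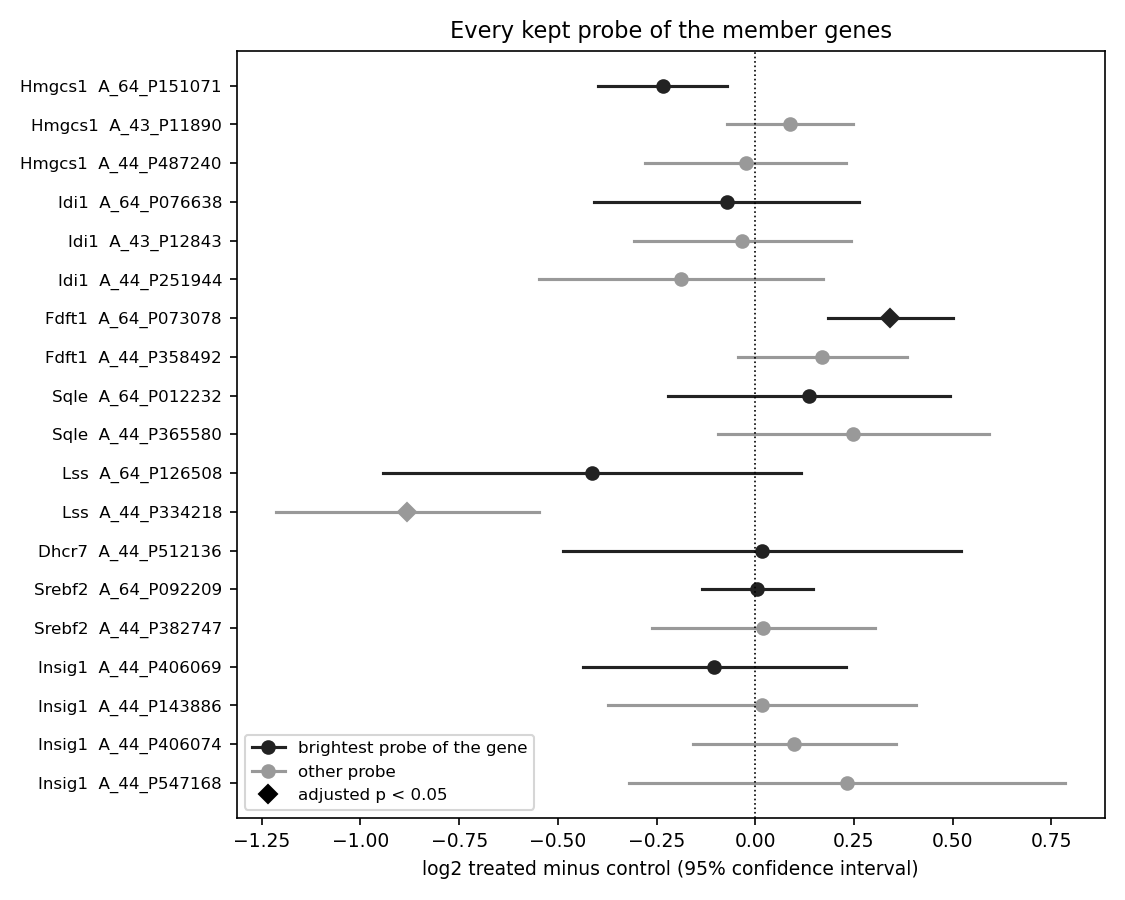
The treated minus control difference in log2 signal (horizontal axis) with its 95% confidence interval is plotted for the 19 kept probes of the 8 members, each probe a row, black for the brightest of its gene. Diamonds mark the 2 probes that passed an adjusted p of 0.05 over every kept probe, 1 of Fdft1 at 0.34 and 1 of Lss at -0.88.

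Probes of one member often gave unequal differences. Of the 7 members with several kept probes, 5 had differences of one sign at all of them, while Hmgcs1 and Insig1 had both signs. Subtracting the brightest probe from each other probe within an array removes any single scaling factor of that array, and gave 11 such pairs. A difference between slides that varies with brightness is not removed. In 7 of the 11 the groups did not overlap, against 35.7% of all 8973 such pairs on the array, with an exact two-sided permutation p of 0.1 for each, the smallest that 3 against 3 arrays allow (adjusted p = 0.157 over the 11 pairs). Pairs of one gene share its brightest probe. For Lss, the second probe minus the first was -1.38, -1.34 and -1.37 in controls and -1.59, -1.85 and -2.06 in treated animals. The controls were nearly equal, and the treated animals lay lower and farther apart. For Hmgcs1, the probe second in brightness minus the first was -2.14, -2.15 and -2.11 in controls and -1.82, -1.82 and -1.80 in treated animals, a difference of 0.32 with very little spread in either group. Which part of each transcript a probe covers was not analysed here.

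Ratios between member genes within an array do not depend on a single scaling factor of that array, and they do not say which gene differs. The ratios were chosen after the values of Fdft1 and Hmgcs1 were seen. Fdft1 over Hmgcs1, at the brightest probes, had log2 values of -0.18, -0.20 and -0.11 in controls and 0.47, 0.40 and 0.38 in treated animals. The groups lay far apart beside their spread (SD 0.044 and 0.047, n = 3 each), a 1.49-fold difference (exact two-sided permutation p = 0.1, the smallest possible). These values are those of the brightest probes. The other probes had smaller differences, 0.17 for Fdft1 and 0.088 and -0.025 for Hmgcs1, and ratios with them were not computed. Fdft1 over Lss differed 1.69-fold and Fdft1 over Idi1 1.33-fold (exact p = 0.1 each), with treated SDs of 0.44 and 0.21. Fdft1 over Sqle, the enzyme that follows it, differed 1.15-fold with overlapping groups (exact p = 0.3).

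Among the other enzymes from acetyl-CoA to cholesterol, none passed the test. Of 15 listed, 14 were tested, and with limma 0 were called in either direction. An unadjusted p under 0.05 was met by 2 upward and 0 downward, beside 25.0% of all genes. Groups without overlap made up 14.3% of the 14, beside 32.8% of all genes. Their median difference was -0.12, with 6 higher and 8 lower by the mean. Tm7sf2, a sterol C14 reductase, was at 2.23, 2.13 and 1.94 in controls and at 2.38, 2.72 and 2.52 in treated animals. Its groups did not overlap, but the difference of 0.43 (SE 0.12, adjusted p = 0.097) did not pass. It passed with a normexp background and with spike-in scaling.

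**Figure D3:**
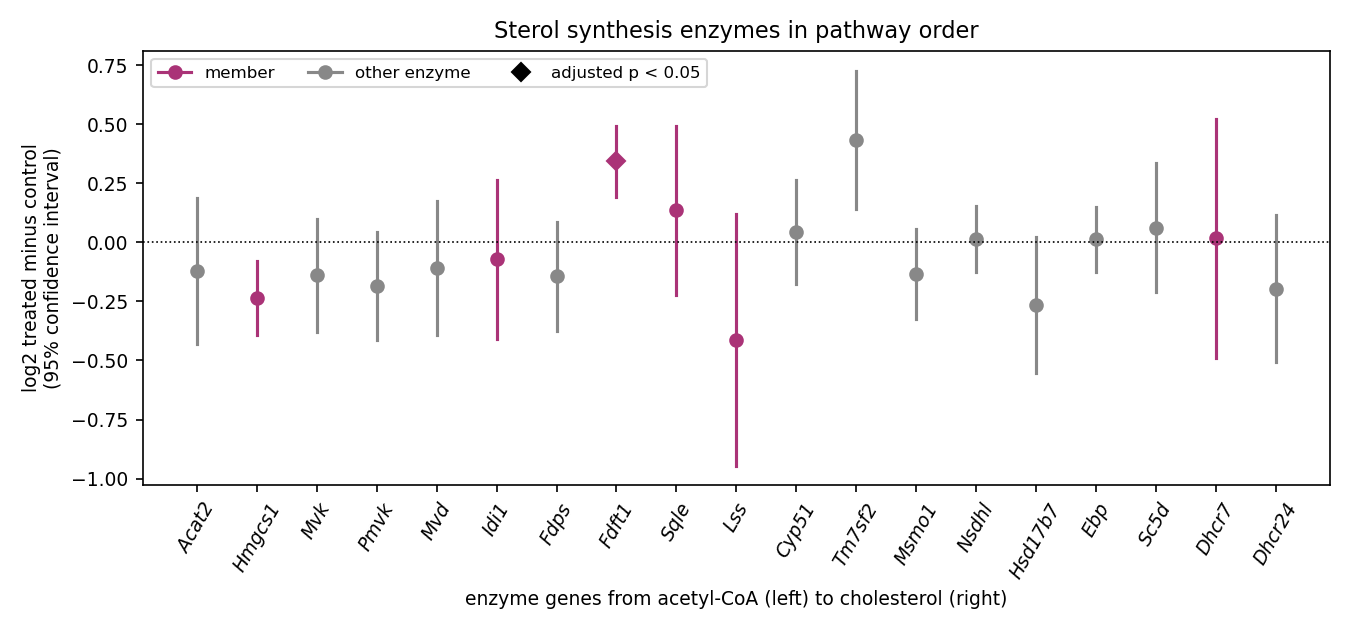
The treated minus control difference in log2 signal (vertical axis) with its 95% confidence interval is plotted for 19 sterol synthesis enzymes at their brightest probes, ordered from acetyl-CoA to cholesterol, with the 6 member enzymes in magenta. The intervals of most enzymes cross 0, and Fdft1 at 0.34 is the only one marked as past an adjusted p of 0.05.

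Among 10 further regulators of SREBP cleavage and sterol sensing, 8 were tested. Of these, 0 were called higher and 1 lower, or 12.5%, beside 4.38% of all genes, with 7 not past the threshold. Separate groups were seen for 3 of the 8, or 37.5%, beside 32.8% of all genes. The called gene was Erlin2, whose product takes part in protein degradation at the endoplasmic reticulum. It was at -1.81, -1.85 and -1.88 in controls and at -2.15, -2.18 and -2.14 in treated animals, with narrow groups that did not overlap. It fell 1.24-fold (log2 difference -0.31, SE 0.052, limma adjusted p = 0.039). The call was lost in each fit that left out 1 array and with median or spike-in scaling. No filter on dim probes, an intensity trend in the variance prior, and the replicate number as a block each lost the call too. Scap, the SREBP escort, named after its values were seen, had a difference of -0.23 (SE 0.063, adjusted p = 0.096) with no overlap. Insig2, which encodes the other INSIG protein, had a difference of 0.090 (SE 0.069, adjusted p = 0.465). The 8 genes had a median difference of -0.029, and Srebf1 was not analysed here.

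Of 10 genes of cholesterol uptake and transport 8 were tested, and with limma 0 were called, while an unadjusted p under 0.05 was met by 1 upward and 1 downward, beside 25.0% of all genes. The groups did not overlap for 3 of the 8, or 37.5%, beside 32.8% of all genes, so that both shares were near the background. Lipa, the lysosomal acid lipase, was at 3.34, 3.34 and 3.20 in controls and at 3.05, 3.08 and 3.08 in treated animals. Its groups did not overlap, but the difference of -0.22 (SE 0.062, adjusted p = 0.0996) did not pass.

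Among 10 tested genes of LXR, the oxysterol receptor, and of cholesterol export, with limma 0 were called. An unadjusted p under 0.05 was met by 0 upward and 1 downward, beside 25.0% of all genes. The receptor genes Nr1h2 and Nr1h3 had differences of -0.18 (adjusted p = 0.135) and -0.11 (adjusted p = 0.329). Of 10 tested genes of fatty acid synthesis, which SREBP1 drives, with limma 0 were called, while an unadjusted p under 0.05 was met by 1 upward and 0 downward. Fads2, a fatty acid desaturase, and Thrsp, a lipogenic regulator, had differences of 0.25 (adjusted p = 0.183) and 0.44 (adjusted p = 0.231). Of 9 tested genes of the mevalonate side branches, with limma 0 were called and 0 had an unadjusted p under 0.05. Ggps1, which makes geranylgeranyl diphosphate, had a difference of -0.10 (adjusted p = 0.271). Nus1, a subunit of the dolichol-making enzyme, had one of 0.44 (adjusted p = 0.376), with treated values of 3.96, 4.02 and 3.03 against 3.13 to 3.36 in controls. In all, 1 of 59 tested pathway genes outside the 8 was called, or 1.69%, beside 4.38% of all genes, and the groups did not overlap for 12 of them, or 20.3%, beside 32.8%.

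Within each group most sterol enzymes were high or low in the same animals. In the treated group the enzymes' own medians were smaller with spike-in scaling, which shifts all genes of an array alike. Control replicate 3 had the lowest control value for 7 of the 8 members and for 11 of the 14 other enzymes, against 35.8% of all genes tested. Control replicate 2 had the highest for 5 of 8 and 9 of 14, against 33.5%. Treated replicate 3 had the highest treated value for 5 of 8 and 9 of 14, against 38.1%, and treated replicate 1 the lowest for 4 of 8 and 7 of 14, against 37.4%.

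Taking the 20 enzymes as deviations from their own group's mean, the median was 0.079 in control replicate 2 (16 of 20 above the mean) and -0.094 in control replicate 3 (18 of 20 below). It was -0.095 in treated replicate 1 (16 below) and 0.083 in treated replicate 3 (15 above), and between -0.034 and 0 in the remaining animals. Median deviations over all genes tested lay between -0.010 and 0.012. The largest deviations among the members were those of Lss in treated replicate 3, 0.49, and of Dhcr7 in treated replicate 2, 0.37. Of the 6 member enzymes, Dhcr7 and Fdft1 lay below their mean in treated replicate 3 (-0.18 and -0.0038). With spike-in scaling the control pattern held (0.13 in replicate 2, -0.11 in replicate 3), while the treated medians were -0.053, 0.00024 and 0.0064. The 20 enzymes share each array and its scaling, so this is a description of 6 animals. Control replicate 3 also had the lowest share of probes above background, 63.1%, and the hepatocyte signal of 15.9 given above, and the part of both in the pattern was not tested.

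**Figure D4:**
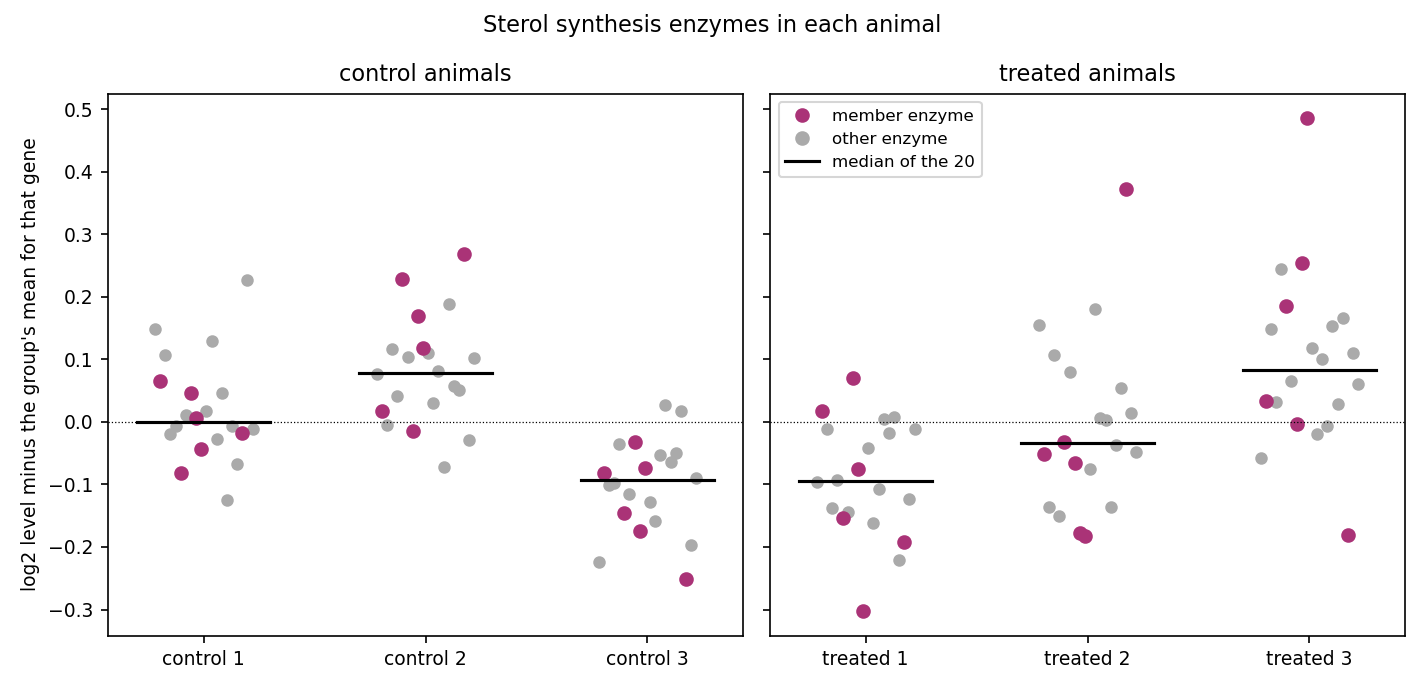
The deviation of each of the 20 sterol enzymes from its own group's mean log2 level (vertical axis) is plotted for the 3 control animals (left) and the 3 treated animals (right), with the 6 member enzymes in magenta and the median of the 20 as a line. Control replicate 3 sits low, with 18 of 20 enzymes below the mean, and control replicate 2 and treated replicate 3 sit high, with 16 and 15 above. With spike-in scaling, which shifts all genes of an array alike, the treated medians were -0.053, 0.00024 and 0.0064.

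The genes most like the members over the 6 arrays were sought by the root mean square difference between a gene's centred log2 levels and the members' mean centred profile. That profile ran 0.024, 0.13 and -0.090 over the control replicates and -0.13, -0.037 and 0.11 over the treated ones, with highs and lows in both groups. Of 12052 candidates outside the pathway lists, the nearest were Mad2l1bp at 0.0145, Commd7 at 0.0162, Slc9a9 at 0.0175, Calr at 0.0248 and Krr1 at 0.0252. Calr encodes calreticulin, a chaperone of the endoplasmic reticulum, Commd7 a COMM domain protein, and Slc9a9 an endosomal sodium-proton exchanger.

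**Figure D5:**
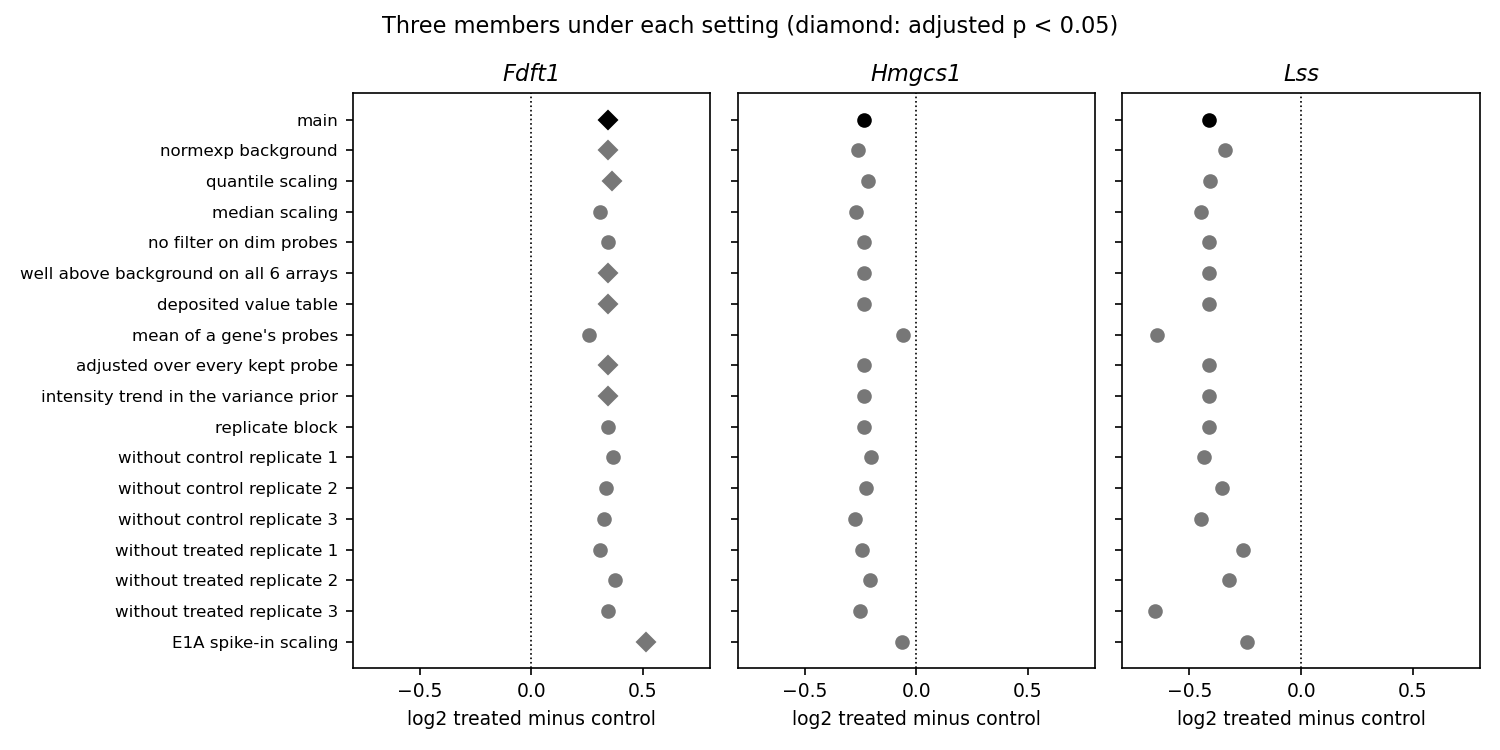
The treated minus control difference in log2 signal (horizontal axes) of Fdft1, Hmgcs1 and Lss at the brightest probe is plotted under the processing used throughout (top row) and 17 alternatives (other rows), with diamonds for an adjusted p under 0.05. Fdft1 stays between 0.26 and 0.51 and Hmgcs1 and Lss stay below 0, while 7 of the 17 alternatives keep Fdft1 past the threshold.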

How the data were processed

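Total RNA was labelled with Cy3 by linear amplification and hybridised to 1-colour Agilent arrays, per the labels' protocols. The intensity of a spot, as deposited, had its background subtracted and was detrended by Feature Extraction 10.7.1.1, per the file headers, which also tie the design to rn4. The submitters' processing notes name version 10.7. A value table was deposited too, as a linear ratio. It equals each array's signal over its 75th percentile (median ratio to the scanner value 0.998 at values of 1 or more), has no centring per gene, and has column medians of 0.1047, 0.1045 and 0.109 (control replicates 1 to 3) and 0.110, 0.108 and 0.108 (treated replicates 1 to 3).

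The log2 processed signal was centred on the 75th percentile of the non-control probes of its array. Between 1 and 3 outlier spots an array were left out as missing, and saturation was not seen. Accessions without versions were matched to RefSeq (GRCr8), which named 28206 probes, and the 33331 others entered no gene-level test. A probe was kept if the arrays of 1 group or both all had it well above background, and the brightest stood for a gene. Comparisons used limma 3.58.1 (lmFit and eBayes, R 4.3.3) with Benjamini-Hochberg adjustment over 12130 genes and a threshold of 0.05. Probes other than the brightest were fitted over all 40988 kept probes.

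The test was checked on simulated data with known changes. Alternatives covered the background correction, scaling, dim-probe filter, probe rule, variance prior, replicate block, each array left out and, added after seeing the data, scaling on the spike-ins.

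The members and lists were chosen with earlier results of these data known. Genes named outside the 8 are the called genes of each list, or the 2 with the smallest p where none was called, with Srebf1 and Insig2 in any case and the 5 nearest in profile. Some genes that this rule names are not reported here. Exceptions are said to be so.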

Additional observations from a re-analysis of the deposited data

How the results depend on the processing

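Of 136 values of the 8 members under 17 alternatives, 113 kept their direction and side of the threshold, 10 (all of Fdft1) lost the call, 13 changed sign and none gained a call. Fdft1 ran from 0.26 to 0.51. Its adjusted p was 0.068 with median scaling, 0.087 with no filter on dim probes, 0.099 for the mean of a gene's probes and 0.093 to 0.119 with 1 array left out. In these, and in the fit with the replicate number as a block, 0 members were called higher. The sign changes were in members that were never called. They were Dhcr7 at -0.017 and Srebf2 at -0.028 with median scaling, Insig1 at 0.061 for the mean of probes, and, with spike-in scaling, Idi1 at 0.098 and Insig1 at 0.067. With 1 array left out, Idi1 ran from -0.17 to 0.042, Dhcr7 from -0.17 to 0.15, Srebf2 from -0.011 to 0.032 and Insig1 from -0.23 to 0.014. The second Lss probe ran from -1.01 to -0.71.

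Counts over all genes moved most. Against 370 higher and 161 lower, a normexp background gave 449 and 496 (47.5% higher against 69.7%), no filter 37 and 7, the mean of a gene's probes 229 and 63, and an intensity trend 441 and 395. Leaving out 1 array gave 0 to 48 higher and 0 to 6 lower, with 2437 to 2647 genes at an unadjusted p under 0.05. Of other pathway genes, 2 were higher with normexp, and 0 were lower with median scaling, no filter, an intensity trend, the replicate block or any 1 array left out. Spike-in scaling, chosen after seeing the data, moved the median of all genes from -0.030 to 0.14 and gave 1181 higher and 35 lower. Other pathway genes then gave 3 higher and 0 lower. The cause of these changes was not tested.

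With the replicate block 0 genes were called in either direction, with 2547 at an unadjusted p under 0.05, and Fdft1 had an adjusted p of 0.137 and the second Lss probe one of 0.101. Same-numbered arrays deviated together with correlations of -0.12, -0.11 and 0.089, so the numbers were not taken to pair the animals. A block for slide or scan was not run, because each held 1 group. For normexp (offset 50), median spot and background signals were used in place of means. For 6 of the 8 members the difference was under 2 standard errors.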
